A study of Homo sapiens with 6 samples.

Results

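The insulin-like growth factor (IGF) system was examined through its binding proteins (IGFBP2, IGFBP3, IGFBP4, IGFBP5, IGFBP6 and IGFBP7), the ligand IGF2 and the receptors IGF1R, IGF2R and INSR. Rows of the authors' deposited comparison were chosen by gene symbol, which gave 9 of the 10 listed genes among the 15794 genes of the table. IGFBP3 was dropped for want of a row and is not analysed here. The set was selected on fold changes of the same comparison that had already been seen, so its values below are a description and carry no new test.

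RNA with poly(A) tails was sequenced from eHAP, a haploid human cell line engineered out of HAP1, whose source was a chronic myeloid leukaemia. All 6 samples expressed Cas9 and stand under one transfection protocol, with a plasmid for guide RNAs and puromycin resistance, puromycin from 24 to 72 h and collection at 5 days. One group of 3 biological replicates carried the knockout of TFDP1, and the other 3, titled NC, have the genotype wild-type and no knockout gene. The labels name no clone, so the values are those of selected populations, and an admixture of Drosophila S2 cells served as a spike-in. TFDP1 encodes DP1, which pairs with E2F factors to bind promoters of cell cycle genes.

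IGF1 and IGF2 are secreted growth factors that signal mainly through the receptor tyrosine kinase IGF1R, and IGF2 also through an isoform of the insulin receptor INSR. IGF2R, the cation-independent mannose 6-phosphate receptor, carries IGF2 to lysosomes for breakdown and sorts lysosomal enzymes. The secreted IGF binding proteins hold the ligands in the extracellular space, prolong their life and limit or concentrate their access to receptors.

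For each gene the deposited table lists how far the groups differ as a log2 fold change, the average abundance as CPM (read counts scaled to library size), and the raw and adjusted p of edgeR's likelihood ratio test. No replicate values were used here, and both the replicate spread and the depth of the libraries are unknown. A gene is termed called when the authors' adjusted p was under 0.05. The sources used here do not name the numerator. TFDP1 had a log2 fold change of 1.17 at 226 CPM (authors' adjusted p = 1.08e-283), and directions are given relative to it: a positive gene was higher, and a negative gene lower, in the group with more TFDP1 transcript, the TFDP1-high group. Whether that is the knockout or the control group cannot be told from the table. Each fold change below is given ± an approximate standard error, taken as its size over the root of the likelihood ratio.

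Most of the binding proteins and receptors had lower transcript levels in the TFDP1-high group. Of the 9 genes, 6 were negative, 1 was positive and 2 were not called. Over all genes, 39.5% were called, 22.2% negative and 17.3% positive. As the set was chosen on this contrast, nothing is read from the difference. The median log2 fold change was -0.17 over the 9 genes and -0.03 over all genes. IGFBP5 stood far from the others at -1.47, INSR was the one called gene on the positive side, and the scarce IGFBP7 and IGF2 were not called. In bulk RNA, fewer cells of a type and less RNA per cell cannot be told apart.

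**Figure D1:**
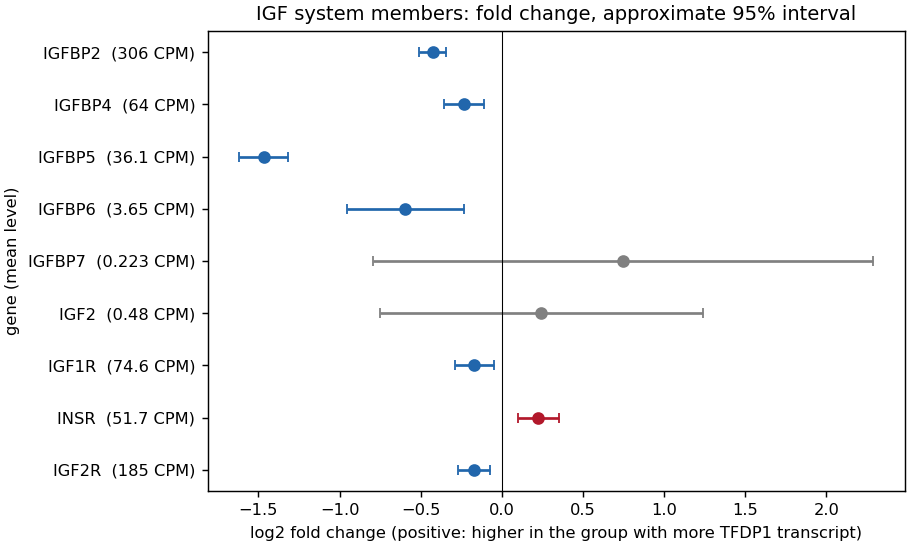
Log2 fold change (x axis) of the 9 genes (y axis, with the mean level in CPM); points are the deposited values and bars approximate 95% intervals, in blue for called negative, red for called positive and grey for genes not called. IGFBP5 lies at -1.47, the other called genes between -0.60 and 0.22, and the bars of IGFBP7 and IGF2 cross 0.

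The promoters of 4 genes are shown because they belong to the gene with the largest change (IGFBP5), its chromosomal neighbour (IGFBP2), the one called gene with the opposite sign (INSR), and the one binding protein with a TATA word (IGFBP4). Each runs from 250 bases before to 50 bases after a RefSeq start on GRCh38.p14, 5′ to 3′ on the gene's own strand. Capitals mark a match to TATAAA or to an E2F-type word.

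IGFBP5, chr2:216695500-216695799, minus strand: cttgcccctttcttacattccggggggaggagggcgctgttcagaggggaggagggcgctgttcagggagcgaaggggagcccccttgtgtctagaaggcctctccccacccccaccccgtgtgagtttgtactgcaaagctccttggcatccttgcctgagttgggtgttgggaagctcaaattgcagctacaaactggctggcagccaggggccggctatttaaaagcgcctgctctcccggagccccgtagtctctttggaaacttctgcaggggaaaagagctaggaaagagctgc

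IGFBP2, chr2:216633170-216633469, plus strand: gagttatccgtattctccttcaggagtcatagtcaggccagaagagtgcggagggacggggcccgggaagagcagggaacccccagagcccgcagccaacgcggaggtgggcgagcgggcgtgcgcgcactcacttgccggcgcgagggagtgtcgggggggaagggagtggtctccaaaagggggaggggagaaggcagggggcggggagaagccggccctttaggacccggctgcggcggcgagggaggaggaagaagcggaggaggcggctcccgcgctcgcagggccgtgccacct

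IGFBP4, chr17:40443200-40443499, plus strand: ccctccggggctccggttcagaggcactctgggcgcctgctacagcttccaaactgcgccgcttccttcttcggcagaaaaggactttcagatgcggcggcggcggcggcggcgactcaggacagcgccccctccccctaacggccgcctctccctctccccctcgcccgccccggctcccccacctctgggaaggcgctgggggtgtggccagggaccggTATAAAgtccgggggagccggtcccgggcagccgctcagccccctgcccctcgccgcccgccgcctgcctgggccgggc

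INSR, chr19:7294365-7294664, minus strand: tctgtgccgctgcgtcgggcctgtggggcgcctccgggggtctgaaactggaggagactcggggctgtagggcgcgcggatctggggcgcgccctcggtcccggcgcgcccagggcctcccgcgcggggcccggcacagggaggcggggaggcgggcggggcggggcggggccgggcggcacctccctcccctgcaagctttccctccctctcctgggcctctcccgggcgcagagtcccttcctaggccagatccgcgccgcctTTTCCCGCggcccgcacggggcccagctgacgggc

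The RefSeq table held 9 such promoters for 7 of the 9 genes, with no match for IGFBP7 and IGF2. IGFBP2 has 3 starts in it, and the one shown is held by 2 of 5 GENCODE transcripts. The E2F-type words searched were TTTCGCGC, TTTGGCGC, TTTCCCGC and TTTGCCGC, on both strands, none of which contains another. They were found in 1 of the 9 promoters, that of INSR, where TTTCCCGC begins at base 16 counted from the first transcribed base as 1. Of all 35116 promoters, 3.31% held at least one of these words, and of the 16440 promoters of genes the authors tested, 4.67% did. The INSR window lies around a RefSeq start 380 bases upstream of the GENCODE gene start, and 0 of 7 GENCODE transcripts hold it. TATAAA, a word of the core promoter searched after the other words had been read, was found in the promoter of IGFBP4, 29 bases before the start, in 11.5% of all promoters and in 6.65% of those of genes the authors tested. The IGFBP5 and IGFBP2 windows held neither kind of word in these letters and are printed wholly in lower case. GC content was 59.0% in the IGFBP5 window and 78.3% in that of INSR, against a median of 64.7% over promoters of genes in the table. These matches describe the letters and say nothing of binding.

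Among the binding proteins, 4 of the 5 in the table were negative and 1 was not called, and their median fold change was -0.43 on the log2 scale. The share of negative genes over all genes was 22.2%, and nothing is read from the difference. IGFBP5 (ENSG00000115461.4, chromosome 2, positions 216672105 to 216695525 of GRCh38, minus strand) is a binding protein that also attaches to extracellular matrix. Its log2 fold change was -1.47 ± 0.08 in the authors' deposited table, a 2.76-fold difference, with an approximate 95% interval of -1.62 to -1.32 and an adjusted p of 1.38e-78. Its mean level of 36.1 CPM, taken with the fold change and groups of equal size, implies about 19.2 CPM in the TFDP1-high group and 53.0 CPM in the other. Its exons share 298 bases with an antisense gene, AC007563.2, whose reads could not be separated without strand. By the deposited values, IGFBP5 had the largest log2 difference of the 9 genes.

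IGFBP2 (ENSG00000115457.9, chromosome 2, positions 216632828 to 216664436, plus strand) is a binding protein found at high levels in fetal tissue and many tumours, and it had the highest level per kilobase of the set. Its log2 fold change in the deposited table was -0.43 ± 0.04, or 1.34-fold (adjusted p = 4.91e-22). The mean of 306 CPM implies about 261 CPM in the TFDP1-high group and 350 CPM in the other. IGFBP2 and IGFBP5 are neighbours that point towards each other, with 7668 bases between their ends. Per kilobase of exon, the implied ratio of IGFBP5 to IGFBP2 was 0.112 in the group with less TFDP1 transcript and 0.0545 in the TFDP1-high group.

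IGFBP4 (ENSG00000141753.6, chromosome 17, positions 40443461 to 40457731, plus strand) generally restrains IGF action until the protease PAPPA cleaves it. It had a log2 fold change of -0.23 ± 0.06 at 64.0 CPM in the deposited table, with an adjusted p of 9.19e-04, and implied levels of 58.9 and 69.2 CPM. IGFBP6 (ENSG00000167779.8, chromosome 12, positions 53097436 to 53102345, plus strand) prefers IGF2 to IGF1. It was scarce, at 3.65 CPM, and its log2 fold change of -0.60 ± 0.18 had a wide approximate interval of -0.96 to -0.24 (adjusted p = 0.00498). Once trends along GC content and transcript length were subtracted, IGFBP4 moved to -0.05 (adjusted p = 0.563) and IGFBP6 to -0.38 (adjusted p = 0.0921), so neither call held under that setting. IGFBP2 and IGFBP5 were called under it, at -0.35 and -1.48.

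IGFBP7 (ENSG00000163453.11, chromosome 4, positions 57030773 to 57110385, minus strand) binds IGFs weakly and is known as a secreted matrix-associated protein. Its log2 fold change of 0.75 ± 0.79 at 0.223 CPM was not called (adjusted p = 0.517), and its approximate interval ran from -0.79 to 2.29. That interval holds changes in both directions, so the deposited values do not settle the direction at this level. Among genes under 1 CPM 12.7% were called, against 45.4% of those at or above 1 CPM. Exons of IGFBP7 share 270 bases with POLR2B on the other strand, a gene at 278 CPM. Since no source used here states the strand setting of the counting, reads of this pair cannot be told apart there, and the level of IGFBP7 is uncertain.

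**Figure D2:**
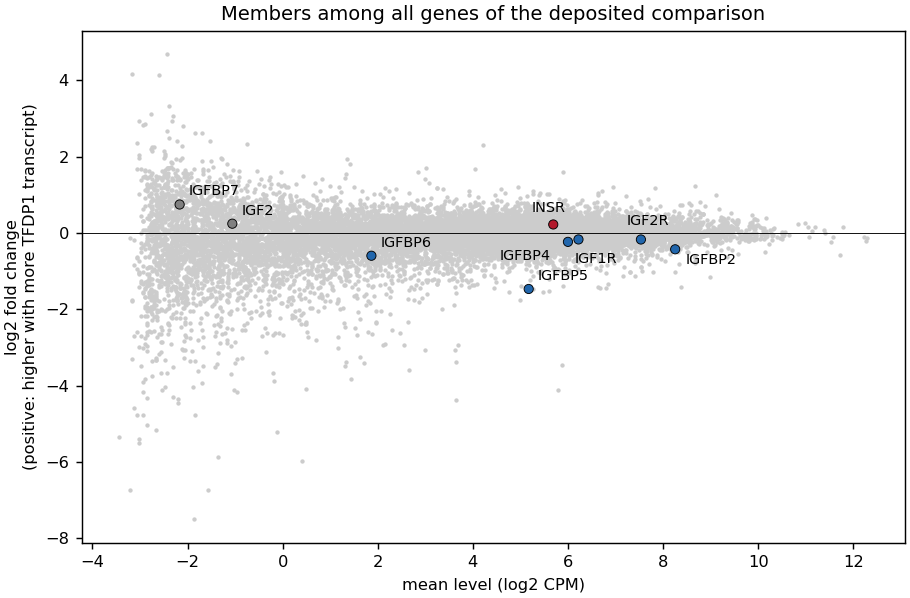
Log2 fold change (y axis) against mean level in log2 CPM (x axis) for all 15794 genes in grey, with the 9 genes labelled, in blue for called negative, red for called positive and dark grey for genes not called. IGFBP5 lies below the bulk of genes of its level, and IGFBP7 and IGF2 lie at the scarce end, where fold changes scatter widely.

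The ligand IGF2 (ENSG00000167244.19, chromosome 11, positions 2129112 to 2149603, minus strand) was nearly undetected in these cells. It stood at 0.480 CPM, with a log2 fold change of 0.24 ± 0.51 that was not called (adjusted p = 0.769). GENCODE holds a second gene of the same symbol, and INS-IGF2 shares 1460 exon bases with IGF2, so the counted reads could have been divided among them. H19, the noncoding RNA of the same imprinted domain, was at 4.82 CPM with a log2 fold change of 0.06 ± 0.16, also not called. Among the other genes of the ligand and binding protein family, IGFBPL1, a secreted protein related to IGFBP7, was called negative at -0.28 ± 0.06 (adjusted p = 1.36e-05). That call did not hold without the length and GC trends (-0.07, adjusted p = 0.359). IGFALS, which stabilises circulating IGF complexes, was at -1.05 ± 0.84 with 0.215 CPM and was not called. The ligands IGF1 and INS, and IGFBP1, INSRR and IGF2-AS, were also listed but had no row.

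The 3 receptors differed by small amounts and not all in one direction. IGF1R (ENSG00000140443.14, chromosome 15, positions 98648539 to 98964530, plus strand), the main signalling receptor, had a log2 fold change of -0.17 ± 0.06 at 74.6 CPM in the deposited table (adjusted p = 0.0188), with implied levels of 70.3 CPM in the TFDP1-high group and 79.0 CPM in the other. IGF2R (ENSG00000197081.13, chromosome 6, positions 159969099 to 160113507, plus strand), the clearance receptor, was also at -0.17 ± 0.05, at 185 CPM (adjusted p = 0.00376). Both were lower by 1.12-fold to 1.13-fold. INSR (ENSG00000171105.13, chromosome 19, positions 7112255 to 7294034, minus strand) went the other way, at 0.22 ± 0.06 and 51.7 CPM (adjusted p = 0.00236), with implied levels of 55.7 CPM in the TFDP1-high group and 47.7 CPM in the other.

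The implied ratio of the related kinases IGF1R and INSR per kilobase of exon was 0.946 in the TFDP1-high group and 1.24 in the other. As the genes were chosen on these fold changes, the ratio is a description. Re-centring all fold changes on the median of the ribosomal protein genes was a shift of 0.08. It ended the calls of IGF1R (-0.09, adjusted p = 0.256) and IGF2R (-0.09, adjusted p = 0.160). The call of INSR held under it (0.31, adjusted p = 1.17e-05). Each receptor was called once the length and GC trends were removed, but INSR only just (0.15, adjusted p = 0.0496). IGF1R was then at -0.23 (adjusted p = 9.73e-04) and IGF2R at -0.25 (adjusted p = 7.78e-06). Which receptor calls were firmest thus depended on the setting.

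Levels of different genes were set side by side per kilobase of annotated exon. IGFBP2 was highest at 64.1 CPM per kb, followed by IGFBP4 at 29.1 and IGF2R at 10.4. IGFBP5 (5.61), IGF1R (5.35) and INSR (4.94) lay close together, and their order changed when the longest transcript replaced all exons (5.81, 6.10 and 5.77 CPM per kb). IGFBP6 was at 2.71 CPM per kb, and IGFBP7 (0.115) and IGF2 (0.0688) were lowest. IGFBP2 made up 63.1% of the binding protein level per kb, IGFBP4 28.6% and IGFBP5 5.52%. The implied sum over the binding proteins was 86.7 CPM per kb in the TFDP1-high group and 117 in the other, a level 74.4% as high. For the receptors the sums were 20.1 and 21.2 CPM per kb. Of the difference in the binding proteins, TFDP1-high minus the other group, IGFBP2 made up -18.8 CPM per kb and IGFBP5 -5.25. IGFBP4 made up -4.67, IGFBP6 -1.10 and the uncalled IGFBP7 0.06 CPM per kb. These group levels have no replicate error.

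**Figure D3:**
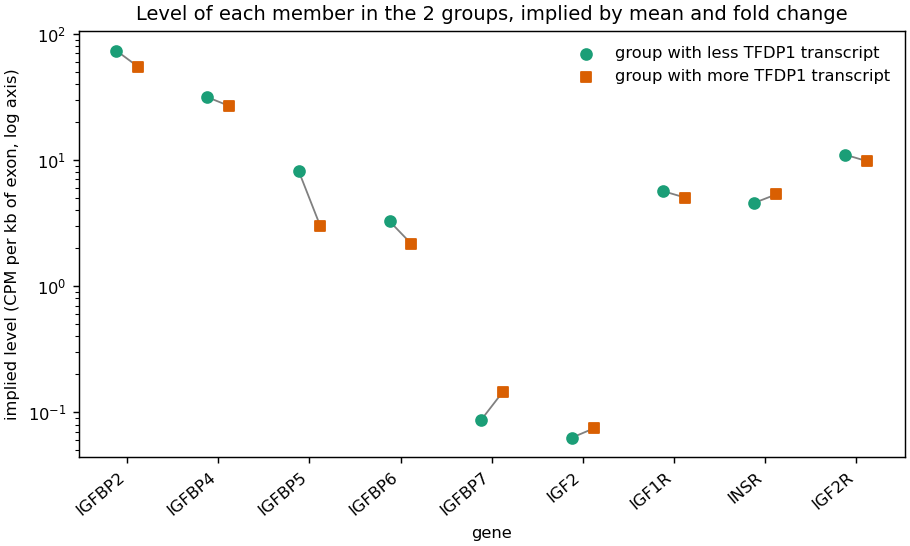
Implied level in CPM per kb of exon (y axis, log scale) of each gene (x axis) in the group with less TFDP1 transcript (green circles) and in the TFDP1-high group (orange squares), computed from the deposited mean and fold change. IGFBP2 is highest in both groups, and the steepest drop is that of IGFBP5, from 8.23 to 2.98 CPM per kb.

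Around these genes, 9 lists of the wider IGF pathway were counted, with 82 genes in the table. Of these, 17 were positive, 25 negative and 40 not called, and the median log2 fold change was -0.05. Beside them, 39.5% of all genes were called (17.3% positive and 22.2% negative), and 45.4% of genes of at least 1 CPM. Nothing is read from the difference. With the authors' adjusted p under 0.05 and a change of at least 1.5-fold, 8 of the 82 were called, beside 9.33% of all genes and 2 of the 9 binding protein, ligand and receptor genes, IGFBP5 and IGFBP6. The lists were drawn up with earlier results of these data known, and their counts are a description.

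Other proteins that share the IGFBP-type N-terminal domain were negative for 5 of 7 genes, positive for 0 and uncalled for 2, and their median was -0.47. Among all genes 22.2% were negative and 17.3% positive, and nothing is read from the difference. CYR61, a matricellular protein also known as CCN1, was at -0.72 ± 0.05 and 410 CPM in the deposited table (adjusted p = 4.22e-43). CRIM1, a transmembrane protein that binds bone morphogenetic proteins, was at -0.82 ± 0.08 and 26.4 CPM (adjusted p = 8.33e-24). The remaining called genes of the list were CTGF (-0.47), KAZALD1 (-0.41) and NOV (-1.43, at under 1 CPM). Without the length and GC trends KAZALD1 was not called (-0.23, adjusted p = 0.0750), and HTRA3, a secreted protease, was called positive (0.44, adjusted p = 0.00151).

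Proteases that cleave binding proteins and the inhibitors of those proteases went both ways, with 2 positive and 2 negative genes of 6. The shares over all genes were 17.3% positive and 22.2% negative. STC2, a stanniocalcin that inhibits PAPPA, was positive at 0.69 ± 0.06 and 98.3 CPM (adjusted p = 1.48e-26), as was the membrane protease ADAM9 at 0.40. The lysosomal protease cathepsin D, CTSD, was negative at -0.39 ± 0.04 and 275 CPM (adjusted p = 2.87e-23). The related stanniocalcin STC1 was called negative at -4.35, but at a mean of 0.219 CPM few reads lay behind its value. PAPPA itself, PAPPA2 and ADAM28 were listed but had no row, so nothing is known of them here.

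Downstream of the receptors, calls of both signs were mixed in each list. The adaptors and proximal regulators gave 4 positive, 5 negative and 7 uncalled genes of 16, beside 17.3% positive and 22.2% negative over all genes. IRS1, a docking protein that couples both receptors to PI3K, was negative at -0.83 ± 0.09 and 18.9 CPM in the deposited table (adjusted p = 1.50e-19). Its relative IRS2 was positive at 0.30 (adjusted p = 0.0101). The docking protein GAB2 was at -0.49 ± 0.07, whereas SOS1, which loads RAS with GTP, was at 0.36 ± 0.05. GRB10, an adaptor that dampens both receptors, was positive at 0.24, SOS2 at 0.22, and GAB1 (-0.31), SOCS1 (-0.96) and SHC1 (-0.16) were negative. SOS2 (0.12) and SHC1 (-0.07) were not called without the length and GC trends.

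Of 25 genes of the PI3K, AKT and TOR pathway, 7 were positive, 6 negative and 12 not called, around a median of 0.02. Without the length and GC trends 4 were positive and 4 negative, and of 14777 genes in all 2681 were positive and 2991 negative. As deposited, 17.3% of all genes were positive and 22.2% negative, beside this list and those below. INPPL1, the phosphatase SHIP2 that opposes PI3K, was at -0.56 ± 0.03 and 218 CPM (adjusted p = 1.54e-57), and EIF4EBP1, a translational repressor held in check by TOR, at 0.38 ± 0.04 and 160 CPM (adjusted p = 2.77e-20). Of the 10 genes in the RAS and ERK list, 2 were positive, 2 negative and 6 uncalled. The GTPase NRAS was positive at 0.19 ± 0.04 and the kinase MAP2K2 was negative at -0.32 ± 0.05. With the length and GC trends removed, NRAS was not called (0.09, adjusted p = 0.0878). The RAS and ERK list then held 4 positive and 2 negative genes. Among FOXO factors, which insulin and IGF signalling keeps out of the nucleus, FOXO1 (-0.47 ± 0.08) and FOXO4 (-0.31 ± 0.07) were negative, FOXO3 (0.29 ± 0.07) was positive and FOXO6 (-0.24 ± 0.13) was not called. The kinases GSK3A and GSK3B were at -0.16 ± 0.05 and 0.15 ± 0.06, both called. Neither was called without the length and GC trends, at -0.11 (adjusted p = 0.0513) and 0.02 (adjusted p = 0.785).

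The 3 IGF2 mRNA-binding proteins, which bind IGF2 and many other transcripts and are not IGF binding proteins, were abundant and none was called in the deposited table. IGF2BP1 was at -0.02 ± 0.03 and 403 CPM, IGF2BP2 at 0.0026 ± 0.06 and IGF2BP3 at 0.0040 ± 0.06 in that table. Without the length and GC trends IGF2BP1 was called, at -0.09 (adjusted p = 0.00918). Of 7 genes that tag or sort lysosomal enzymes with mannose 6-phosphate, the other cargo of IGF2R, GNPTAB, a subunit of the tagging enzyme, was negative at -0.39 ± 0.08 and 6 were not called. The second receptor of this tag, M6PR, was at -0.06 ± 0.05, GNPTG at -0.13 ± 0.10, NAGPA at -0.13 ± 0.09, GGA1 at 0.04 ± 0.05, GGA2 at -0.06 ± 0.04 and GGA3 at -0.10 ± 0.07. GGA1 was called positive without the length and GC trends (0.20, adjusted p = 7.72e-04) and after re-centring on ribosomal protein genes (0.12, adjusted p = 0.0479).

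**Figure D4:**
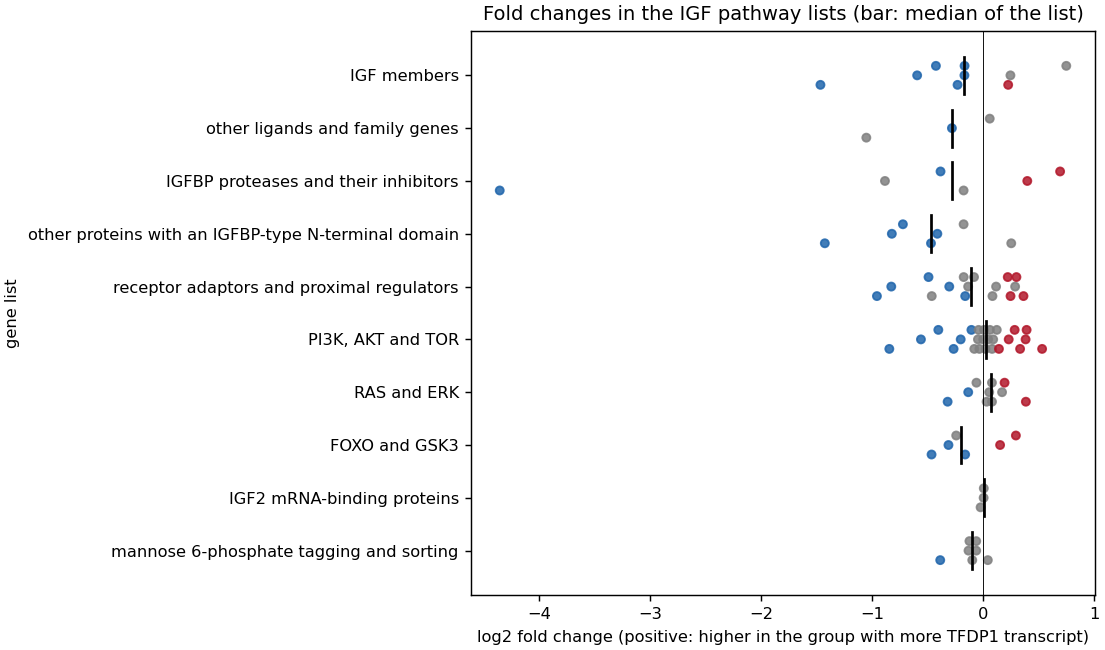
Log2 fold change (x axis) of each gene in the 9 pathway lists and in the set itself (y axis), in blue for called negative, red for called positive and grey for genes not called; black bars are medians. The list with an IGFBP-type N-terminal domain has a median of -0.47, while the PI3K, AKT and TOR list spreads on both sides of 0.

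Binding proteins of this family are made by many stromal cells, so markers of several cell types were read beside them. All samples are of the cell line eHAP, and which cells the marker transcripts came from was not tested. Of 12 fibroblast and mesenchymal markers 7 were in the table, of which 5 were negative and 0 positive (median log2 value -0.30). Their summed level was 522 CPM, of which VIM alone gave 487 at a log2 fold change of -0.30. THY1 (-2.66, at 2.97 CPM) and POSTN (at 2.30 CPM) lay further from 0 than IGFBP5. The called PDGFRA (-1.36, at 4.12 CPM) and COL1A1 (-0.28, at 19.4 CPM) lay nearer to 0 than IGFBP5. COL1A1 lost its call after re-centring on the median ribosomal protein gene (-0.20, adjusted p = 0.149). It also lost it without the length and GC trends (-0.20, adjusted p = 0.137). Of 9 epithelial markers 5 were in the table, 3 negative and 0 positive, with a median of -0.99 and a summed level of 53.9 CPM. The keratin KRT8 was at -2.94 and 12.8 CPM and EPCAM at -4.18 and 0.515 CPM, also further from 0 than IGFBP5. Of 11 blood markers 4 were in the table, 1 positive and 1 negative, with a sum of 21.1 CPM. Over all genes 22.2% were negative and 17.3% positive. The called fibroblast and epithelial markers thus had the same sign as IGFBP5 and IGFBP2, and their part in the result was not tested.

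**Figure D5:**
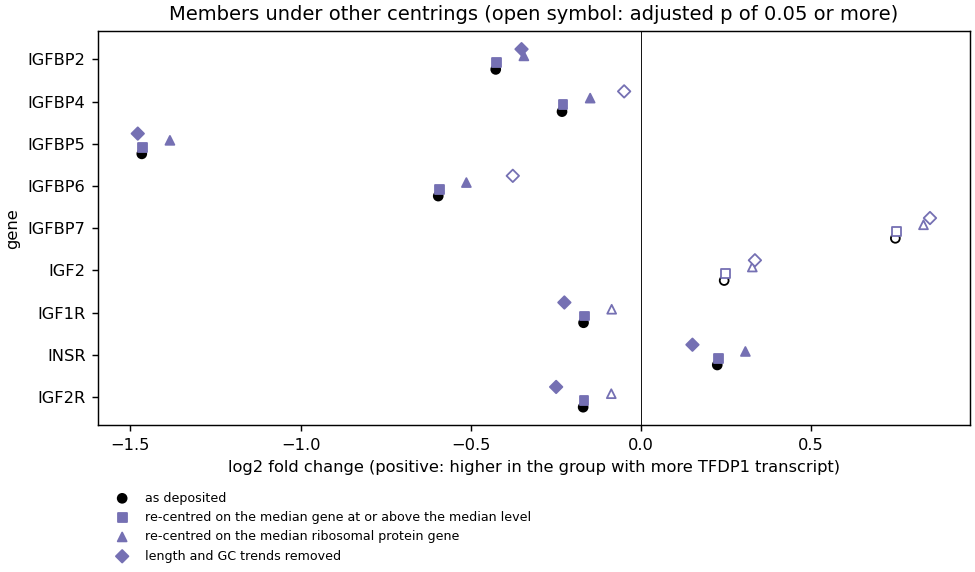
Log2 fold change (x axis) of the 9 genes (y axis) as deposited (black circles), re-centred on the median gene at or above the median level (squares), with the median ribosomal protein gene set to 0 (triangles) and with length and GC trends removed (diamonds); open symbols have an adjusted p of 0.05 or more. The sign of each of the 9 genes is the same in all 4, IGFBP5 stays between -1.48 and -1.38, and IGF1R, IGF2R, IGFBP4 and IGFBP6 each lose their call in 1 of them.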

How the data were processed

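The authors' deposited table was read by column name. Its columns of log2 values (fold change and CPM), its likelihood ratio, a score per gene on 1 degree of freedom, and its p-value and FDR columns were made by the authors. Per the submitters' processing notes Trimmomatic, HISAT2, featureCounts and edgeR were used with the builds hg38 and dm6. The sources used here give no versions, scaling, strand setting or direction of the comparison. A gene was called where the deposited FDR was under 0.05, and samples were not tested anew. The p-values rest on 3 against 3 biological replicates and library depths are unknown.

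The genes and lists were chosen with earlier results of these data known. Named were all genes of the set, the 2 called genes of smallest p in each list plus the best of the opposite sign, all genes of lists of up to 8, the next gene of the table on each side, and, chosen after their values were seen, all called genes where a list had 5 or fewer in a direction. Some genes that this rule names are not reported here.

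Group levels were computed from the mean and the fold change with groups of equal size. Positions, exon lengths and overlaps came from GENCODE 29 (GRCh38), matched by symbol for 14777 genes (93.6%), with levels over the longest transcript added after seeing the data, and promoters from RefSeq (GRCh38.p14). Re-centred values were divided by the approximate standard error and adjusted by Benjamini-Hochberg over all genes, which gives approximate p-values for those settings only. Trends on transcript length and GC content were removed by lowess (span 0.3). Re-centring and trend removal were tested on simulated data. The description of proteins that had been planned was not made. Python 3.11.15, pandas 2.3.3, numpy 2.4.6, scipy 1.17.1, statsmodels 0.14.6 and matplotlib 3.10.9 were used.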

Additional observations from a re-analysis of the deposited data

How the results depend on the processing

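Of the 9 genes, 7 were called as deposited. Bonferroni adjustment left 2 of them (IGFBP5 and IGFBP2), and a minimum change of 1.5-fold also left 2 (IGFBP5 and IGFBP6). In the pathway lists 42 of 82 genes were called, with 21 under Bonferroni adjustment and 8 with the fold minimum. Of all 15794 genes, 6244 were called as deposited (39.5%), 2464 under Bonferroni adjustment and 1474 with the fold minimum (9.33%). Both settings call fewer genes by construction. Re-centring on the median ribosomal protein gene moved the list split from 17 positive and 25 negative to 27 and 20, and that of all genes from 2738 and 3506 to 4226 and 2536. Of the 8 alternatives, 3 alter the fold changes, and no called gene of the set changed sign under these. IGFBP5 was called under all 8. Leaving out replicates was not run, as it needs values per sample. No paired analysis was possible because the deposited columns hold one comparison and no values per replicate. At the low levels of IGFBP7 and IGF2 the approximate intervals are wide, and the depth behind them is unknown.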

Other observations

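The nearest genes of the table on either side of each of the 9 genes gave 16 neighbours outside the set, of which 2 were positive, 6 negative and 8 not called. Among all genes 17.3% were positive and 22.2% negative, and nothing is read from the split of so few neighbours. TOP2A, the topoisomerase of dividing cells, lies 25.5 kb from IGFBP4 and was positive at 0.62 ± 0.03, whereas IGFBP4 was negative. On its other side SMARCE1, a subunit of chromatin remodelling complexes, was at 0.06 ± 0.04 and not called. Beyond IGFBP5 the next gene was the noncoding DIRC3, 588 kb away, at -2.61 ± 0.62 with a level of only 0.434 CPM, and before IGFBP2 the ribosomal protein gene RPL37A was not called (-0.14 ± 0.06). Next to IGF1R lay SYNM, an intermediate filament gene, at -0.56 ± 0.08, and next to INSR lay ARHGEF18 at -0.21 ± 0.05. ADGRL3, an adhesion receptor gene 4091 kb from IGFBP7, was at -1.99 ± 0.12, and POLR2B, an RNA polymerase II subunit gene that overlaps IGFBP7, was at -0.11 ± 0.05. Beside IGFBP6, SPRYD3 was positive at 0.41 ± 0.09 and CSAD was not called (-0.01 ± 0.13). PNLDC1, on one side of IGF2R, was called at -1.86 ± 0.67 at under 1 CPM, and SLC22A2, on the other, was not (-1.60 ± 1.14). H19 and CD81-AS1 (0.38 ± 0.88) beside IGF2, IRAIN (-0.30 ± 0.39) beside IGF1R and ZNF557 (0.22 ± 0.11) beside INSR were not called.

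In the promoters of 66 genes of the pathway lists, 2 of 102 windows held an E2F-type word, against 4.67% of those of all genes in the table.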
